A study of Bos taurus with 27 samples.

Results

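The genes described here are 34 parts of the protein-folding and secretory machinery of the endoplasmic reticulum (ER), together with the sensors and transcription factors of the unfolded protein response that control it. They were matched by gene symbol from a list that was drawn up with earlier results of these data known. Of the 34, 33 had at least 1 probe among the 14495 named genes of the array and were kept whatever their signal, since no filter on low values was applied. PDIA6, a protein disulfide isomerase, had no probe under its name and has no value here. The 33 genes were covered by 81 probes, 1 probe for 9 genes and several for the other 24.

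RNA came from biopsies of the superficial cervical lymph node, a node that receives lymph from skin of the neck and forelimb, in cattle of 3 breeds, Bonsmara, Brahman and Holstein-Friesian. Each breed was sampled with no ticks attached (baseline), with larvae of the cattle tick Rhipicephalus microplus attached (larva) and with its adults attached (adult), with 3 biological replicates in each of the 9 groups. The labels give no sampling times or ages and name tick-free arrays only at baseline, so tick attachment cannot be told apart from time or age, and nothing in them tells if the same animals were sampled at each stage. Each of the 27 arrays set its sample, in the red dye Cy5, against the same pool of cattle superficial cervical lymph node RNA in the green dye Cy3. All values are log2 ratios of sample over that pool, so 0 is the level of the pool for that gene, and levels of different genes cannot be set against each other. The file names neither the log base nor the direction, and both were taken as likely, the direction from the dyes. If the ratio ran the other way, every rise and fall below would change places.

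Proteins made for secretion enter the ER through the SEC61 channel, lose their signal peptide, receive sugar chains and fold with the help of HSPA5 (BiP), HSP90B1 (GRP94), the lectins calnexin and calreticulin and the disulfide isomerases. When folding capacity falls short, 3 membrane sensors respond: ERN1 (IRE1) splices the mRNA of XBP1, EIF2AK3 (PERK) slows translation and raises ATF4 and DDIT3 (CHOP), and ATF6 is cut to release a transcription factor. Lymph nodes hold plasma cells, which secrete antibody and are known for a large ER and high levels of these genes. B cells are known to need XBP1 to become plasma cells that secrete at full rate.

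A few facts on the arrays bear on every value. Arrays differed in spread, with an SD over all probes from 0.22 to 0.55. The interquartile range was 0.34, 0.365 and 0.45 at Bonsmara baseline and 0.21, 0.17 and 0.32 in Bonsmara larva arrays. In Brahman and Holstein-Friesian the ranges of baseline and larva arrays overlapped. For the library with the label Holstein-Friesian larva replicate 3, the correlation to its 2 group mates averaged -0.085, and over the 50 features that best separated the breeds on the other arrays it lay 1.33 log2 units from its own breed and 0.36 from Brahman. Bonsmara larva replicate 3 lay 0.73 from its own breed and 0.56 from Holstein-Friesian. Holstein-Friesian baseline replicate 1 lay about as close to Bonsmara (0.42) as to its own breed (0.43). All stayed in under their labels, and calls among the larva comparisons are given with and without the 2 larva arrays. Of 11 lymph node marker genes, 9 were measured. Their presence cannot be judged, because the pool is lymph node too. In larva arrays 1 of the 9 differed from baseline, CCL19, a chemokine of lymph node stroma, which was 0.61 higher (limma adjusted p = 0.0117), or 0.54 without the 2 larva arrays (adjusted p = 0.0337).

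**Figure D1:**
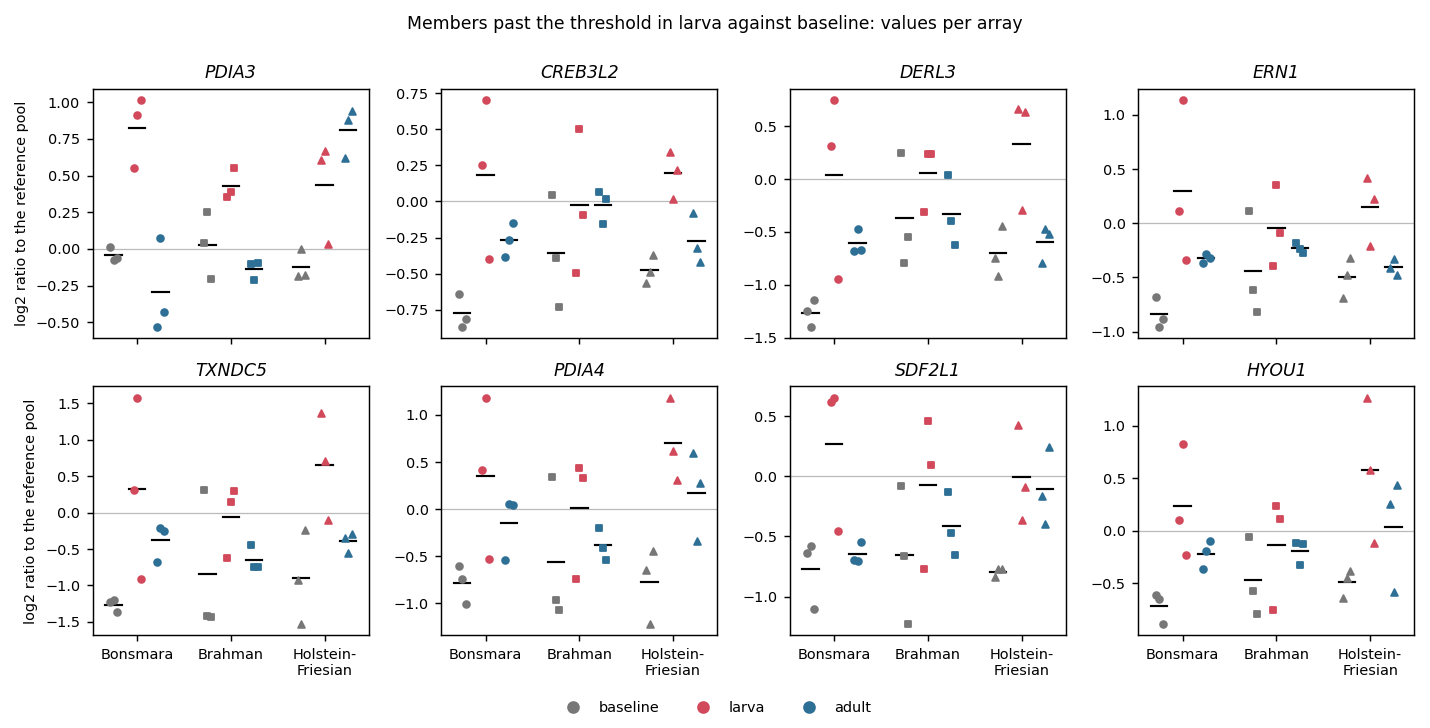
Log2 ratio to the pool on each array (points) and group mean (bars) for the 8 genes past the threshold in larva against baseline, with breeds side by side and stages in order within a breed. In PDIA3 all 9 larva arrays lie above every baseline array of their own breed, while in the other 7 panels the Brahman groups overlap.

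The first question was what changed with larvae attached, as the mean of the 3 breeds' differences. Of the 33 genes 8 rose and 0 fell. These were the isomerases PDIA3, PDIA4 and TXNDC5, the chaperones SDF2L1 and HYOU1, the sensor ERN1, the transcription factor CREB3L2 and the degradation factor DERL3, by 0.61 to 1.31 log2 units, which is 1.53- to 2.48-fold. A call means an adjusted p under 0.05, from limma's moderated test with Benjamini-Hochberg adjustment over 28927 features. By that rule 1.21% of all features were called, and 0.684% were called higher. The difference was above 0 for 32 of the 33 genes, against 43.94% of all features, and its median was 0.50, against -0.019 over all features. Without the 2 larva arrays that stand apart, 22 of the 33 rose, with 1.66% of all features called, 1.04% called higher and a median of 0.63. In the mean of the 33 genes, each of the 2 was the lowest larva array of its breed (-0.18 in Bonsmara, 0.026 in Holstein-Friesian). Leaving them out therefore raises the larva means of the genes as a set, here and wherever they are left out below. Below, counts at an unadjusted p under 0.05 are also set beside the share of all features at that mark, in either direction.

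PDIA3 (ERp57) is the isomerase that works with calnexin and calreticulin on glycoproteins, and it is also part of the complex that loads peptides onto MHC class I. PDIA3 in larva arrays stood at 0.56, 0.91 and 1.01 in Bonsmara, 0.36, 0.39 and 0.55 in Brahman, and 0.61, 0.67 and 0.034 in Holstein-Friesian. PDIA3 at baseline stood at 0.017, -0.074 and -0.058 in Bonsmara, 0.041, 0.25 and -0.21 in Brahman, and -0.19, -0.0033 and -0.18 in Holstein-Friesian. Every larva array was above every baseline array of its breed, and the 1 low larva array was the Holstein-Friesian array that stands apart. The rise was 0.61 (SE 0.097, limma adjusted p = 0.00224). Its 95% interval was 0.41 to 0.81, and the value rests on a single probe. The same holds for SDF2L1, ERN1 and DERL3 among the called genes. It also holds for HSP90B1, DNAJB9, DNAJC3, CRELD2 and SEL1L.

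TXNDC5 (ERp46), another disulfide isomerase and abundant in plasma cells, had the largest difference of the 33 genes. TXNDC5 in larva arrays stood at 0.30, 1.58 and -0.90 in Bonsmara, -0.62, 0.15 and 0.29 in Brahman, and 1.36, 0.71 and -0.10 in Holstein-Friesian. TXNDC5 at baseline stood at -1.23, -1.21 and -1.36 in Bonsmara, 0.31, -1.42 and -1.43 in Brahman, and -0.93, -1.53 and -0.23 in Holstein-Friesian. The groups did not overlap in Bonsmara and Holstein-Friesian, and in Brahman the highest value of all was a baseline array. The rise was 1.31 (SE 0.28, limma adjusted p = 0.0200), a call lost without Holstein-Friesian larva replicate 1 (1.10).

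PDIA4 (ERp72), also a disulfide isomerase, followed the same arrays. PDIA4 in larva arrays stood at 0.41, 1.18 and -0.53 in Bonsmara, -0.74, 0.44 and 0.33 in Brahman, and 1.18, 0.61 and 0.31 in Holstein-Friesian. PDIA4 at baseline stood at -0.60, -0.74 and -1.01 in Bonsmara, 0.34, -0.96 and -1.07 in Brahman, and -0.64, -1.22 and -0.44 in Holstein-Friesian. Larva and baseline arrays were apart in Bonsmara and Holstein-Friesian and overlapped in Brahman. The rise was 1.06 (SE 0.23, limma adjusted p = 0.0217), and the call was lost without Brahman larva replicate 2 or 3, Holstein-Friesian baseline replicate 2 or Holstein-Friesian larva replicate 1 (0.92 to 1.21 over all fits that left out 1 array). The other folding enzymes fell short of the threshold: TXNDC11, a thioredoxin-like protein of the ER membrane, differed by 0.38 (adjusted p = 0.0581), FKBP11, a prolyl isomerase of secretory cells, by 0.65 (adjusted p = 0.119) and CRELD2, a secreted ER stress protein, by 0.59 (adjusted p = 0.111).

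Among the 8 luminal chaperones and their helpers, SDF2L1 and HYOU1 rose. HYOU1 (GRP170) helps HSPA5 release its clients. HYOU1 in larva arrays stood at 0.10, 0.83 and -0.23 in Bonsmara, -0.76, 0.24 and 0.12 in Brahman, and 1.27, 0.58 and -0.12 in Holstein-Friesian. HYOU1 at baseline stood at -0.61, -0.65 and -0.89 in Bonsmara, -0.056, -0.57 and -0.79 in Brahman, and -0.64, -0.45 and -0.38 in Holstein-Friesian. Of the 9 larva arrays 8 were above every baseline array of their breed, the exception being Brahman larva replicate 1. The rise was 0.78 (SE 0.18, limma adjusted p = 0.0332), between 0.67 and 0.90 in the fits that left out 1 array. In 11 of those 27 fits the call was lost: those without Bonsmara baseline replicate 2 or 3, Bonsmara larva replicate 2, Brahman baseline replicate 2 or 3, Brahman larva replicate 2 or 3, Holstein-Friesian baseline replicate 1 or 2, and Holstein-Friesian larva replicate 1 or 2.

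SDF2L1 forms a complex with the co-chaperone DNAJB11. SDF2L1 in larva arrays stood at 0.62, 0.65 and -0.46 in Bonsmara, -0.77, 0.46 and 0.092 in Brahman, and 0.43, -0.37 and -0.091 in Holstein-Friesian. SDF2L1 at baseline stood at -0.64, -0.58 and -1.10 in Bonsmara, -0.079, -0.66 and -1.23 in Brahman, and -0.84, -0.77 and -0.77 in Holstein-Friesian. Brahman larva replicate 1 was again the only larva array not above its breed's baseline arrays. The rise was 0.80 (SE 0.18, limma adjusted p = 0.0279), between 0.71 and 0.93 with 1 array left out. The call was lost in 8 of those fits, the ones without Bonsmara baseline replicate 3, Bonsmara larva replicate 1 or 2, Brahman baseline replicate 3, Brahman larva replicate 2 or 3, Holstein-Friesian baseline replicate 1 or Holstein-Friesian larva replicate 1.

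HSPA5 and HSP90B1, the most abundant chaperones of the ER lumen, were not called. HSP90B1 differed by 1.10 (SE 0.29, limma adjusted p = 0.0627), with larva arrays between -1.12 and 1.37 and baseline arrays between -1.45 and 0.20. HSPA5 differed by 0.51 (SE 0.14, limma adjusted p = 0.0876), and 7 of its 9 larva arrays were above every baseline array of their breed. Both passed without the 2 larva arrays that stand apart, at 1.46 (adjusted p = 0.00424) and 0.63 (adjusted p = 0.0246). The co-chaperones DNAJB11 (0.65, adjusted p = 0.0520) and DNAJC3 (0.50, adjusted p = 0.189), and MANF (0.52, adjusted p = 0.110), an HSPA5 partner whose 3 probes correlated at -0.075 to 0.89, also missed it. DNAJB9, a co-chaperone known to hold ERN1 inactive, differed by 0.033 with a 95% interval of -0.29 to 0.36. The lectin chaperones calreticulin (CALR, 0.38) and calnexin (CANX, 0.23) had adjusted p-values of 0.201 and 0.290.

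**Figure D2:**
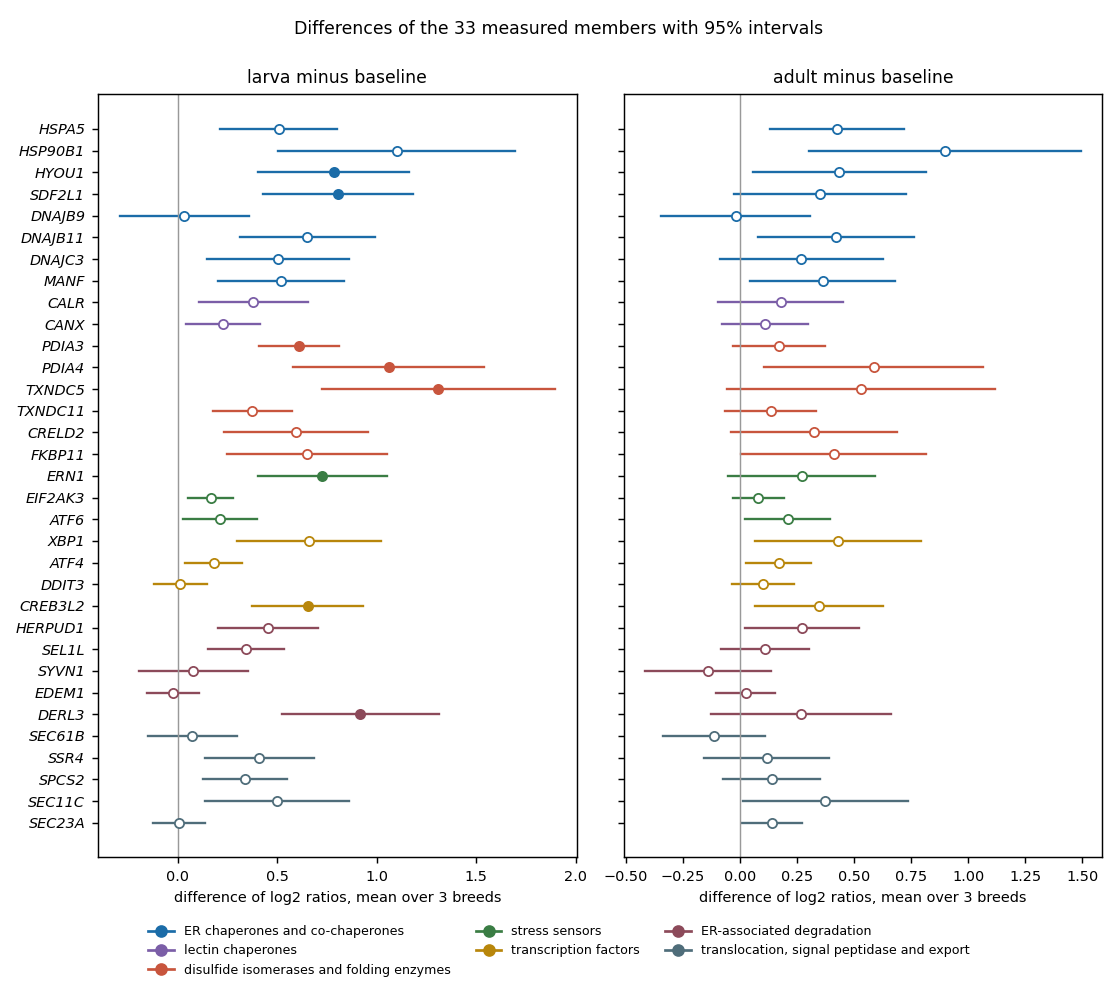
Larva minus baseline (left) and adult minus baseline (right), each as the mean over the 3 breeds in log2 units (x axis), for the 33 genes in order of role. Points are fitted differences, bars their 95% intervals, and filled points have an adjusted p under 0.05. The 8 filled points are all on the left, and the right panel has none.

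Of the 3 sensors only ERN1 was called. ERN1 in larva arrays stood at 0.11, 1.13 and -0.34 in Bonsmara, -0.40, 0.36 and -0.091 in Brahman, and 0.42, -0.21 and 0.22 in Holstein-Friesian. ERN1 at baseline stood at -0.68, -0.95 and -0.88 in Bonsmara, 0.12, -0.61 and -0.81 in Brahman, and -0.69, -0.48 and -0.32 in Holstein-Friesian. No larva array overlapped baseline in Bonsmara or Holstein-Friesian, and the Brahman groups overlapped. The rise was 0.73 (SE 0.16, limma adjusted p = 0.0197), and the call was lost without Brahman larva replicate 2 or without Holstein-Friesian larva replicate 1 (adjusted p over 0.05 in each). EIF2AK3 differed by 0.16 (SE 0.054, adjusted p = 0.172) and ATF6 by 0.21 (SE 0.090, adjusted p = 0.320). The 3 EIF2AK3 probes correlated at only -0.16 to 0.43 with each other. Whether ERN1 differed from the other sensors in its response was not tested.

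Among the transcription factors CREB3L2 was called. CREB3L2 sits in the ER membrane, is released by cutting in the Golgi, and in mouse cartilage is known to drive secretory pathway genes. CREB3L2 in larva arrays stood at 0.25, 0.70 and -0.40 in Bonsmara, -0.49, 0.50 and -0.092 in Brahman, and 0.35, 0.017 and 0.22 in Holstein-Friesian. CREB3L2 at baseline stood at -0.64, -0.87 and -0.81 in Bonsmara, 0.042, -0.39 and -0.73 in Brahman, and -0.57, -0.49 and -0.37 in Holstein-Friesian. Bonsmara and Holstein-Friesian larva arrays lay wholly above baseline, and 1 of 3 did so in Brahman. The rise was 0.65 (SE 0.13, limma adjusted p = 0.0161). XBP1 differed by a like amount, 0.66 (SE 0.18), with an adjusted p = 0.0687, and 8 of its 9 larva arrays were above their breed's baseline arrays. Spliced and unspliced XBP1 mRNA were not told apart. ATF4 differed by 0.18 (SE 0.069, adjusted p = 0.260). DDIT3, the factor tied to death under lasting ER stress, differed by 0.013 with a 95% interval of -0.12 to 0.15, and its 2 probes correlated at 0.15.

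ER-associated degradation carries misfolded proteins back out of the ER to the proteasome. DERL3, a membrane protein of that exit route, rose. DERL3 in larva arrays stood at 0.31, 0.74 and -0.95 in Bonsmara, -0.31, 0.24 and 0.24 in Brahman, and 0.66, -0.30 and 0.63 in Holstein-Friesian. DERL3 at baseline stood at -1.24, -1.40 and -1.14 in Bonsmara, 0.24, -0.79 and -0.55 in Brahman, and -0.75, -0.92 and -0.44 in Holstein-Friesian. Once more the groups were apart in Bonsmara and Holstein-Friesian, and no Brahman larva array exceeded the highest Brahman baseline array. The rise was 0.92 (SE 0.19, limma adjusted p = 0.0163). HERPUD1, which organises the ubiquitin ligase complex, differed by 0.45 (adjusted p = 0.0687) and SEL1L, its adaptor, by 0.34 (adjusted p = 0.0716). The ubiquitin ligase SYVN1 (HRD1) itself differed by 0.077 and EDEM1, which hands misfolded glycoproteins to this route, by -0.025, with 95% intervals of -0.20 to 0.35 and -0.15 to 0.10.

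None of the 5 genes of translocation, signal peptide removal and ER export was called. The translocon-associated SSR4 differed by 0.41 (adjusted p = 0.158), the signal peptidase subunits SPCS2 and SEC11C by 0.34 (adjusted p = 0.122) and 0.50 (adjusted p = 0.201), SEC61B of the channel by 0.073 and SEC23A of the COPII vesicle coat by 0.0064. SSR4, SPCS2 and SEC11C passed without the 2 larva arrays that stand apart, with adjusted p-values of 0.0334, 0.0205 and 0.00747. The probes of SPCS2, SEC61B and SEC23A went poorly together, with correlations of 0.042 and 0.22 for the first 2 genes and -0.24 to 0.52 for SEC23A.

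The count of 8 depended on single arrays. It fell to 3 when Holstein-Friesian larva replicate 1 was left out, and it was 4 and 5 without Brahman larva replicates 2 and 3, 13 without Bonsmara larva replicate 3, 16 without Brahman baseline replicate 1, and 17 without Brahman larva replicate 1 or without Holstein-Friesian larva replicate 3. PDIA3, CREB3L2 and DERL3 were called in all 27 fits that left out 1 array. The share of all features called is not given for such fits, here or below. Their counts therefore do not tell a shift of these genes from a shift of the whole array. With arrays scaled to one interquartile range, or with larva and baseline arrays fitted alone, 1 of the 33 was called, PDIA3.

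**Figure D3:**
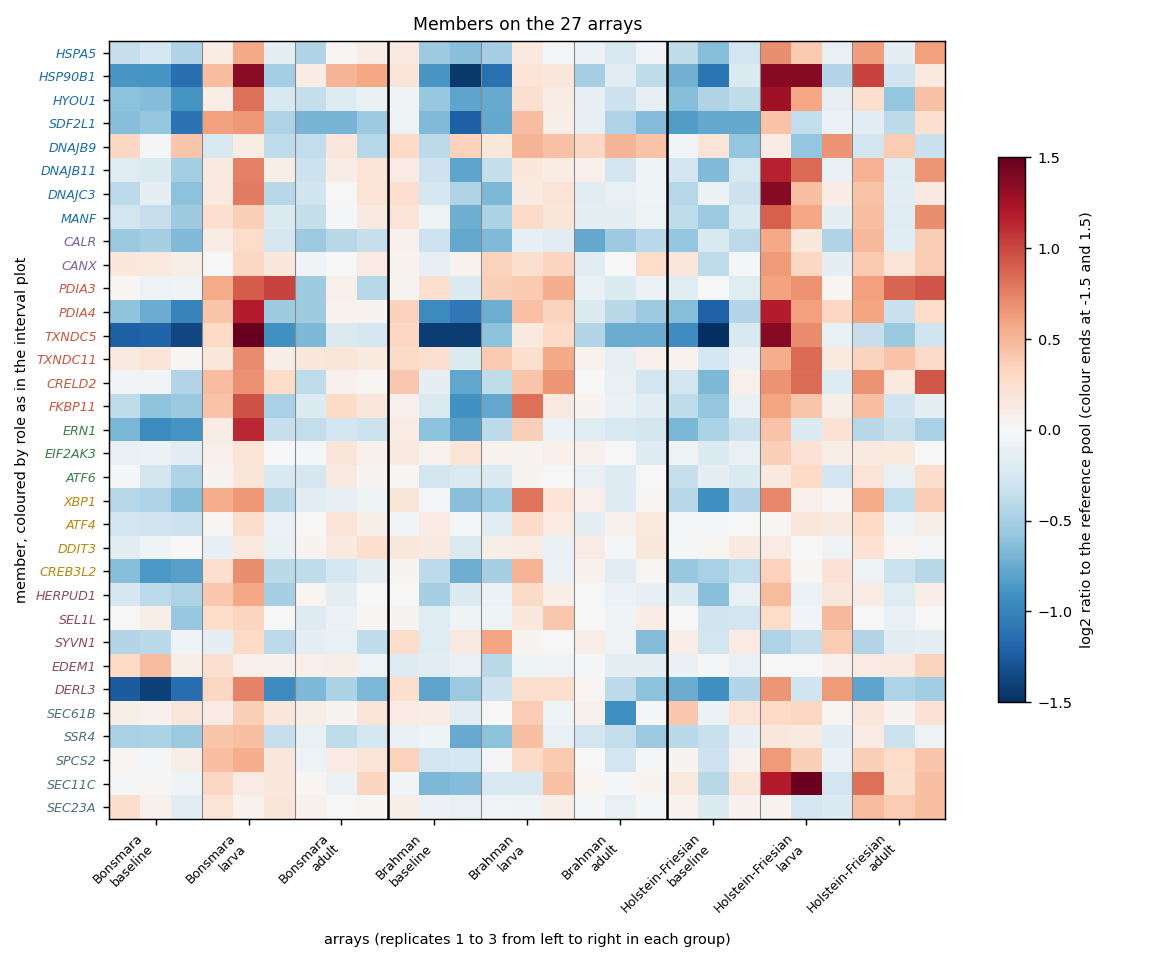
Log2 ratios of the 33 genes (rows, in order of role) on the 27 arrays (columns, in groups of 3 by breed and stage), with the colour scale ending at -1.5 and 1.5. Most rows are blue in the same baseline arrays and red in the same larva arrays, while DNAJB9, SYVN1 and EDEM1 go their own way.

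The genes varied together from array to array, also among arrays of 1 group. Over the 27 arrays the 528 pairs of the 33 genes had a median correlation of 0.54, and 471 of them were above 0. Within groups, after each group's mean was taken off, the median was 0.45. PDIA4 followed the mean of the other genes most closely (r = 0.98), and HSPA5 with DNAJB11 was the closest pair (r = 0.95). SYVN1 (-0.045), DNAJB9 (-0.14) and EDEM1 (0.11) did not follow the mean of the others, and PDIA3 followed it at 0.58 over the arrays and at 0.20 within groups. These correlations describe 27 arrays that share a pool, and carry no test.

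In the mean of the 33 genes per array, baseline arrays stood at -0.29, -0.33 and -0.45 in Bonsmara, 0.12, -0.31 and -0.49 in Brahman, and -0.28, -0.44 and -0.19 in Holstein-Friesian. Larva arrays stood at 0.23, 0.57 and -0.18 in Bonsmara, -0.28, 0.25 and 0.17 in Brahman, and 0.57, 0.29 and 0.026 in Holstein-Friesian. Adult arrays stood at -0.23, -0.035 and -0.033 in Bonsmara, -0.076, -0.20 and -0.15 in Brahman, and 0.24, -0.074 and 0.19 in Holstein-Friesian. Brahman larva replicate 1 and Bonsmara larva replicate 3 were low among larva arrays, and Brahman baseline replicate 1 was high among baseline arrays. Counting each gene's group means, the lowest of the 9 groups was Bonsmara baseline for 16 genes and Holstein-Friesian baseline for 10. The highest was Holstein-Friesian larva for 17, and Bonsmara larva and Holstein-Friesian adult for 6 each. The same count over all features is not given, and the genes vary together, so these counts do not set the 33 genes apart.

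The mean of the plasma cell markers moved with these genes. Of 13 plasma cell markers, none of them among the 34 genes, 10 were measured, and 3 rose in larva arrays: JCHAIN, which joins antibody polymers, by 1.56 (SE 0.38, limma adjusted p = 0.0433), the ER chaperone MZB1 by 1.48 (SE 0.36, adjusted p = 0.0398) and the transcription factor IRF4 by 1.05 (SE 0.18, adjusted p = 0.00397). Of the 10, 5 rose without the 2 larva arrays that stand apart. Of all features 1.21% were called with those 2 arrays and 1.66% without them. Not every marker went up in every breed. In Bonsmara only SLAMF7 had a lower group mean in larva arrays than at baseline (-0.0082 against 0.12). In Brahman PRDM1, CD38, SLAMF7 and PIM2 were lower, SLAMF7 at -0.36 against 0.15. In Holstein-Friesian no marker was lower. The summed log2 ratio of the 10 markers in larva arrays ran from -3.48 to 8.68 in Bonsmara, -4.36 to 4.15 in Brahman and 0.39 to 6.30 in Holstein-Friesian. At baseline it ran from -5.34 to -2.77, -5.72 to 1.67 and -6.70 to -2.45 in the same breeds. Per array, the mean of the 33 genes and the mean of the 10 markers correlated at 0.95 (Spearman's rho 0.93), at 0.92 without the 2 arrays farthest from the median in the markers and at 0.93 within groups. In the same way the B cell marker mean (9 of 12 measured) correlated with the 33 genes at 0.0013, and at -0.28 within groups. The T cell marker mean correlated with them at -0.38, and at -0.074 within groups, and the cytotoxic and NK cell mean at -0.45 and 0.33. A close correlation was not particular to plasma cell markers. Among lists described below, vesicle traffic had 0.94 (0.92 within groups), signal peptidase and oligosaccharyltransferase 0.92 (0.89), and folding and oxidation 0.90 (0.86). Genes switched on by ATF4 had 0.52 (0.39), and ATF6-processing and related factors 0.17 (-0.061). In tissue RNA, more cells of a type and more RNA per cell cannot be told apart.

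**Figure D4:**
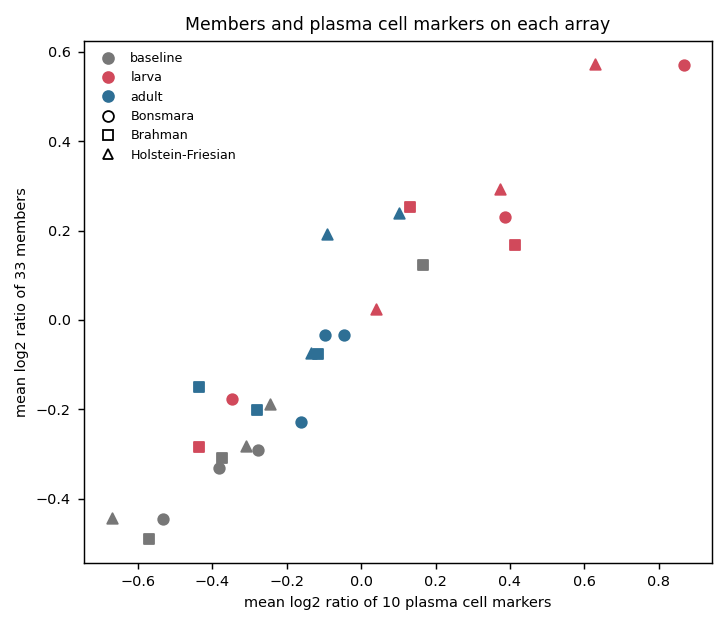
Mean log2 ratio of the 10 measured plasma cell markers (x axis) against the mean of the 33 genes (y axis), 1 point per array, with colour for stage and symbol for breed. The 27 points lie along 1 line, and the low larva arrays and the high Brahman baseline array lie on it with the rest.

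With the plasma cell marker mean of each array as a covariate, an alternative added after the data were seen, 0 of the 33 genes were called in larva against baseline, with 0.169% of all features called. The median difference of the 33 genes was then 0.071. TXNDC5 had 0.19 in place of 1.31, HSP90B1 0.032 in place of 1.10 and PDIA4 0.15 in place of 1.06. PDIA3 kept 0.56 in place of 0.61, with an adjusted p = 0.132. ERN1 had 0.24, CREB3L2 0.23 and DERL3 0.33. In Bonsmara alone the same fit called 0 of the 33, with 0.27% of all features called. The marker mean itself differs between the stages, so which of the stage and the marker mean carries the difference cannot be told apart. It also correlated with the mean of the 33 genes at 0.95 over the arrays and 0.93 within groups, and includes the ER chaperone MZB1. A covariate this close to the genes takes most of their shared difference off, so the drop does not tell where the difference comes from.

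**Figure D5:**
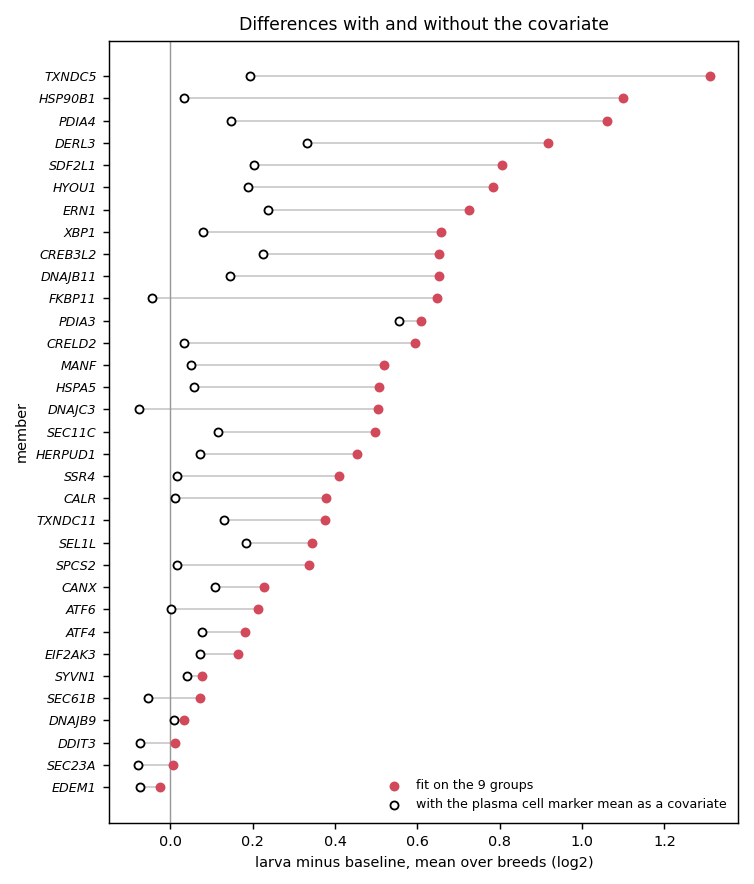
Larva minus baseline as the mean over breeds (x axis, log2 units) for each of the 33 genes (y axis), from the fit on the 9 groups (filled) and with the plasma cell marker mean as a covariate (open). Open points lie near 0 for nearly all genes, and PDIA3, at 0.56, has the highest. The covariate correlates with the mean of these genes at 0.93 within groups, so most of their shared difference goes with it.

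Markers of other cells differed between larva and baseline arrays as well. Of 11 fibroblast and matrix genes 7 rose, such as COL1A1 by 1.99, and their mean correlated with that of the 33 genes at 0.56 over the arrays and 0.18 within groups. Of 10 cytotoxic and NK cell genes 5 fell, of 12 T cell genes 4 and of 10 macrophage genes 2, and of 10 endothelial genes 2 rose. These counts were 7, 5, 5, 1 and 2 without the 2 larva arrays that stand apart. Over all features 1.21% were called, 198 of 28927 higher and 153 lower, and 1.66% were called without those 2 arrays. The part of these cells in the result was not tested.

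Neighbouring pathways were counted in the same way, where 1.21% of all features were called. In larva against baseline, folding and oxidation had 2 of 20 genes that rose and 0 that fell, with a median of 0.28. These were SIL1, which like HYOU1 serves HSPA5 as exchange factor (0.42, SE 0.086, limma adjusted p = 0.0148), and ERP29, an ER protein that assists secretion (0.51, SE 0.12, adjusted p = 0.0289). Vesicle traffic between ER and Golgi had 2 of 21 that rose and 0 that fell, with a median of 0.16. These were LMAN1, a cargo receptor for glycoproteins (0.87, SE 0.18, adjusted p = 0.0189), and KDELR3, a receptor that returns ER residents (0.78, SE 0.18, adjusted p = 0.0293). SRPRA, of the receptor that docks ribosomes, was the 1 of 16 translocon genes that rose (0.34, adjusted p = 0.0372), and ERLEC1, an ER lectin, the 1 of 13 further degradation genes (0.34, adjusted p = 0.0374). Oligosaccharyltransferase and signal peptidase had 0 of 10 called (8 at an unadjusted p under 0.05, by limma, where 12.5% of all features stood) with a median of 0.37 and all 10 differences above 0, led by SPCS3 (0.70, adjusted p = 0.0520). With the 2 larva arrays that stand apart left out, 7 of 20 genes rose in folding and oxidation and 5 of 21 in vesicle traffic. In the translocon list 4 of 16 rose, in degradation 3 of 13, and in oligosaccharyltransferase and signal peptidase 5 of 10. None fell, and 1.66% of all features were called in that fit.

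Genes that ATF4 switches on under PERK signalling, such as ASNS and TRIB3, had 0 of 14 called, 1 at an unadjusted p under 0.05 by limma, and a median of 0.052. The smallest p among them was that of VLDLR, a lipoprotein receptor (0.39, adjusted p = 0.204). The ATF6-processing proteases and related factors had 0 of 6 called, 1 at an unadjusted p under 0.05 by limma, and a median of 0.038. Heat shock proteins of cytosol and mitochondria had 0 of 12 called, 4 at an unadjusted p under 0.05 by limma, with a median of 0.20, all 12 above 0, and HSPA9 nearest the threshold (0.32, adjusted p = 0.0560). In these lists 0 of 14, 0 of 6 and 3 of 12 genes rose and none fell without the 2 larva arrays that stand apart, with 2, 0 and 6 at an unadjusted p under 0.05 by limma. With all arrays 12.5% of all features stood at that mark. Without the 2 larva arrays 1.66% of all features were called, and their share at the unadjusted mark is not given. Whether the 33 genes differ from these lists was not tested.

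Within breeds, the calls were in Bonsmara. In Bonsmara larva against Bonsmara baseline 3 of 33 genes rose and 0 fell, with 1.11% of all features called and 0.505% called higher. They were PDIA3 by 0.87 (SE 0.17, limma adjusted p = 0.0122), ERN1 by 1.14 (SE 0.27, adjusted p = 0.0374) and CREB3L2 by 0.96 (SE 0.23, adjusted p = 0.0449), all with groups that did not overlap in the values given above. The median over the 33 genes was 0.54. The call of CREB3L2 was lost in 19 of the 27 fits that left out 1 array, and that of PDIA3 without Bonsmara larva replicate 2 or 3. Leaving out Bonsmara larva replicate 3 gave 6 calls, leaving out Bonsmara larva replicate 2 gave 0, and there was 1 without Bonsmara larva replicate 1 or any 1 of the 3 Bonsmara baseline arrays. Without the 2 larva arrays that stand apart 8 genes rose, with 0.958% of all features called and 0.508% called higher: DERL3 (1.79), CREB3L2 (1.25), ERN1 (1.46), TXNDC5 (2.20), HERPUD1 (0.87), PDIA3 (0.77), SDF2L1 (1.41) and HSP90B1 (1.87).

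In Holstein-Friesian larva against Holstein-Friesian baseline 0 of 33 were called, with 0.00346% of all features called. By limma 24 of the 33 were higher at an unadjusted p under 0.05, with 5.95% of all features at that mark, and the median was 0.62. EIF2AK3 (0.35), TXNDC11 (0.62) and PDIA4 (1.47) had the smallest p-values, each with an adjusted p = 0.584. Without the 2 larva arrays that stand apart 1 gene rose, SEC11C by 1.36 (adjusted p = 0.0362), with 0.038% of all features called and 0.0242% called higher. The 2 Holstein-Friesian larva arrays that remain stood at 1.19 and 1.47 for SEC11C, against 0.15, -0.42 and 0.18 at baseline. In Brahman larva against Brahman baseline 0 of 33 and 0% of all features were called. PDIA3 was the only one of the 33 at an unadjusted p under 0.05 by limma (0.40, adjusted p = 0.471), with 9.51% of all features at that mark, and the median was 0.29.

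The response to larvae was then compared between breeds. No gene of the 33 was called in any pair, by limma, with 0% of all features called for Brahman against Holstein-Friesian, 0.00691% for Bonsmara against Holstein-Friesian and 0% for Brahman against Bonsmara. At an unadjusted p under 0.05 there were 2, 0 and 1 genes in these pairs by limma, with 5.09%, 9.01% and 9.72% of all features. They were DNAJC3 (-0.88) and EIF2AK3 (-0.42) for Brahman minus Holstein-Friesian, and EIF2AK3 (-0.28) for Brahman minus Bonsmara. Again none was called without the 2 larva arrays that stand apart, with 0% of all features called in each pair. At an unadjusted p under 0.05 there were then 10, 5 and 10 genes by limma, with 8.23%, 13.0% and 10.3% of all features. ERN1 had a difference of responses of -0.75 for Brahman minus Bonsmara (95% interval -1.54 to 0.042, adjusted p = 0.535), so a gap of over 1 log2 unit between these breeds lies within the interval. The calls in Bonsmara alone therefore do not show that Bonsmara responded more.

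With adult ticks attached, none of the 33 genes was called against baseline. The mean over breeds had 0 of 33 called with 0.0346% of all features called, and 14 genes were higher at an unadjusted p under 0.05 by limma (11.5% of all features), with a median of 0.27. HSP90B1 had the smallest p (0.90, SE 0.29, adjusted p = 0.260). PDIA3 differed by 0.17, TXNDC5 by 0.53 and ERN1 by 0.27. Bonsmara, Brahman and Holstein-Friesian adult against baseline each had 0 called, with 0.0311%, 0% and 0% of all features called and medians of 0.22, 0.060 and 0.41. At an unadjusted p under 0.05, limma gave 4, 0 and 16 genes in these breeds, with 11.2%, 11.6% and 4.88% of all features.

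In Holstein-Friesian, PDIA3 adult arrays stood at 0.62, 0.88 and 0.94, all above the baseline arrays given above. The difference was 0.94 (SE 0.17) with an adjusted p = 0.198. SEC23A adult arrays of that breed stood at 0.47, 0.39 and 0.45, against 0.058, -0.20 and 0.067 at baseline, a difference of 0.46 (SE 0.11, adjusted p = 0.603). HSPA5 came next by p with 0.80 (SE 0.24, adjusted p = 0.908). In Bonsmara ATF4 had the smallest p (0.39, SE 0.12, adjusted p = 0.265) and in Brahman EIF2AK3 (-0.17, SE 0.094, adjusted p = 0.495).

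Adult was also set against larva. The mean over breeds had 0 of 33 called with 0.232% of all features called, and by limma 9 genes were lower and 1 higher at an unadjusted p under 0.05, with 10.2% of all features at that mark. The median was -0.22. PDIA3 was nearest, at -0.44 (SE 0.097, adjusted p = 0.0627), then DERL3 at -0.65 (SE 0.19, adjusted p = 0.170). Without the 2 larva arrays that stand apart PDIA3 passed, at -0.47 (adjusted p = 0.0462), with 0.173% of all features called. These differences and those against baseline share the larva or the adult arrays and are not independent.

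In Bonsmara 1 gene fell, PDIA3, with 0.0484% of all features called and 0.0207% called lower. Its Bonsmara adult arrays stood at -0.53, 0.072 and -0.43, all below the larva arrays at 0.56, 0.91 and 1.01. The change was -1.12 (SE 0.17, limma adjusted p = 0.0309), and the call was lost without any 1 of 5 arrays (-1.31 to -1.01 over all fits that left out 1 array). Those 5 were Bonsmara baseline replicate 1, larva replicates 2 and 3, and adult replicates 1 and 3. Without both larva arrays that stand apart the change was -1.03 (adjusted p = 0.0337), with 0.0104% of all features called. Brahman and Holstein-Friesian adult against larva had 0 called each, with 0.00346% of all features called in both and 3 and 4 of the 33 at an unadjusted p under 0.05 by limma (8.003% and 4.76% of all features). In Brahman PDIA3 stood at -0.10, -0.21 and -0.093 in adult arrays, below all larva arrays (-0.57, adjusted p = 0.454). In Holstein-Friesian PDIA3 was higher in adult than in larva arrays by 0.38 (adjusted p = 1.0). That difference was 0.17 to 0.49 over all fits that left out 1 array. It was 0.17 without Holstein-Friesian larva replicate 3, which stands apart. SEC23A had the smallest p there, with adult arrays at 0.47, 0.39 and 0.45 against 0.049, -0.25 and -0.21 in larva arrays (0.57, SE 0.11, adjusted p = 0.314).

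Between breeds, the 33 genes were compared at each stage. At baseline 0 were called for Brahman against Holstein-Friesian, Bonsmara against Holstein-Friesian and Brahman against Bonsmara, with 0.0207%, 0.225% and 0.152% of all features called. At an unadjusted p under 0.05, limma gave 1, 2 and 4 of the 33 genes in these pairs and 10.2%, 10.7% and 14.04% of all features. Whether the genes' share differed from that of all features was not tested. EDEM1 came nearest, at -0.16 ± 0.043 in Brahman and 0.29 ± 0.19 in Bonsmara (SD, n = 3), a difference of -0.45 (SE 0.11, limma adjusted p = 0.0971). In larva arrays 0 were called in the 3 pairs, with 0% of all features called in each and 4, 2 and 2 genes at an unadjusted p under 0.05 by limma (5.91%, 4.63% and 5.48% of all features). Without the 2 larva arrays that stand apart, 1 gene was called for Brahman against Holstein-Friesian, SEC11C (-1.33, adjusted p = 0.0197), with 0.467% of all features called.

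In adult arrays 1 gene was called in 1 pair, PDIA3 for Bonsmara against Holstein-Friesian, and it was the only feature of 28927 called there, 0.00346% (0.00346% lower). PDIA3 in adult arrays stood at -0.53, 0.072 and -0.43 in Bonsmara and -0.10, -0.21 and -0.093 in Brahman, and all 6 lay below the Holstein-Friesian arrays at 0.62, 0.88 and 0.94. Bonsmara minus Holstein-Friesian was -1.11 (SE 0.17, limma adjusted p = 0.0369), a call lost in 18 of the 27 fits that left out 1 array (-1.29 to -0.99), so it stood close to the threshold. Brahman minus Holstein-Friesian was -0.95 (SE 0.17, adjusted p = 0.0889), in a pair with 0 genes and 0% of features called and 8 genes at an unadjusted p under 0.05 by limma (10.1% of all features). SEC23A was second by p in both pairs, at -0.40 (adjusted p = 0.402) and -0.48 (adjusted p = 0.166), and CALR followed, at -0.67 (adjusted p = 0.516) and -0.80 (adjusted p = 0.227). Brahman against Bonsmara had 0 genes and 0% of features called, with 2 genes at an unadjusted p under 0.05 by limma (5.65% of all features).

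The response to adults did not pass in any pair of breeds either, with 0% of all features called in each of the 3. At an unadjusted p under 0.05, limma gave 5 genes for Brahman against Holstein-Friesian, 4 for Bonsmara against Holstein-Friesian and 2 for Brahman against Bonsmara, with 5.43%, 7.17% and 7.18% of all features at that mark. For PDIA3 the adult response differed by -1.19 (SE 0.24, limma adjusted p = 0.295) between Bonsmara and Holstein-Friesian and by -1.10 (SE 0.24, adjusted p = 0.864) between Brahman and Holstein-Friesian. The F test of breed by stage called 0 genes and 0% of features, with 4 of the 33 and 6.99% of all features at an unadjusted p under 0.05 by limma. PDIA3 had the smallest p of the 33 genes there (F = 12.6, adjusted p = 0.174), before SEC23A (F = 6.46, adjusted p = 0.563).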

How the data were processed

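The authors hybridised each lymph node RNA sample against a common pool on 2-colour arrays. The deposited table holds values of 45220 probes on 27 arrays, taken here as log2 ratios. Per the submitters' processing notes they used limma. Version, background correction and normalization were not given in the sources used here. No scanner intensities were used, so signal over background is unknown, and the number of arrays limits the precision.

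Probes were named through the platform table, updated by RefSeq gene names (ARS-UCD2.0, names only): 30788 had 1 symbol, 0 several and 14432 none. Probes of a gene were averaged, which gave 28927 features, unnamed probes included. In limma 3.58.1 (R 4.3.3) 1 mean per group was fitted over all 27 arrays (lmFit, eBayes, 18 residual degrees of freedom), and p-values were adjusted by Benjamini-Hochberg over all features, with a call at 0.05. The fit was tested on simulated data in which features were independent and each had 1 spread in all groups. That test does not cover genes that vary together or groups of unequal spread. Replicates are biological per the labels. Whether replicate numbers pair arrays is given with the alternatives.

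Genes were named by rule: array values for those called, up to 3 by smallest p where none was, up to 4 called per other list. The 34 genes and all lists were chosen with earlier results of these data known. Alternatives changed the probe summary, array scaling, array weights, variance estimate, arrays fitted, blocking and arrays left out; the marker covariate was chosen after seeing the data. No sequences are shown. Further lists with no call are B cell (0 of 9 called in larva against baseline), cycling (0 of 7), immediate early (0 of 8) and adjoining tissue genes (0 of 11), with 3, 0, 1 and 2 at an unadjusted p under 0.05 by limma (12.5% of all features). Without the 2 larva arrays that stand apart, an alternative extended to these lists after seeing the data, they had 0, 0, 0 and 1 called, with 2, 1, 1 and 2 at that mark. In that fit 1.66% of all features were called, and their share at the unadjusted mark is not given.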

Additional observations from a re-analysis of the deposited data

How the results depend on the processing

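The count of the 33 genes called in larva against baseline, 8 as reported, was 1 with arrays scaled to one interquartile range (0.525% of all features called), 14 with array weights (1.4%), 1 with larva and baseline arrays alone (0.653%), 22 without the 2 larva arrays that stand apart and 0 with the plasma cell marker covariate (median 0.071), and 3 to 17 over the fits that left out 1 array. In Bonsmara, 3 as reported, it was 1 (0.629% of all features), 14 (5.74%), 0 (0%), 8 and 0 (median 0.043) in the same order, 1 with the replicate number as a block (0.964%) and 0 to 6 with 1 array left out. Holstein-Friesian larva against baseline had 1 call without the 2 larva arrays and 0 to 1 with 1 array left out. Adult against larva over breeds, 0 as reported, had 1 when scaled (0.591% of all features), 2 with weights (1.17%), 1 without the 2 larva arrays and 0 to 1 with 1 array left out. Bonsmara adult against larva, 1 as reported, had 3 with weights (4.46% of all features), 0 alone (0%) and 0 with the covariate, 0 to 1 with 1 array left out, and a median of -0.48 when scaled. In larva arrays, Brahman against Holstein-Friesian had 1 without the 2 larva arrays and 0 to 1 with 1 array left out. In adult arrays, Brahman against Holstein-Friesian had 3 with weights (1.61% of all features), 1 without the 2 larva arrays (0.176%) and 0 to 1 with 1 array left out, and Bonsmara against Holstein-Friesian, 1 as reported, had 0 when scaled, 0 alone and 0 with the covariate (0% in each) and 0 to 1 with 1 array left out. The breed by stage test had 1 with weights (0.0691% of all features) and 0 to 1 with 1 array left out. Under the covariate 5 of the 33 differences changed sign over breeds, to between -0.079 and -0.044, and 13 in Bonsmara, to between -0.23 and -0.00069, none of them called without it. Among those at an unadjusted p under 0.05 without it were DNAJC3 (-0.077) and FKBP11 (-0.044) over breeds, and HSPA5 (-0.00069), CRELD2 (-0.023) and FKBP11 (-0.019) in Bonsmara. Same-numbered arrays of a breed correlated over 0.1 in 7 of 27 pairs (-0.30 to 0.18), while 23 of the 27 arrays had a higher mean correlation with arrays of their own number than with others, a hint from the data and not the design. With that block 7 genes were called over breeds (1.04% of all features), HYOU1 being lost (adjusted p = 0.0684), and in Bonsmara ERN1 and CREB3L2 were lost (adjusted p = 0.0706 and 0.0871); it changed no other call of the 33 genes. PDIA3 in larva against baseline over breeds kept its call under every alternative except the covariate. The causes were not tested.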

Other observations

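Among 13440 other named genes, those that followed the mean of the 33 genes most closely within groups over the 27 arrays were PLOD3 (r = 0.90), FICD (0.90), CKAP4 (0.90), MYDGF (0.90), CNPY2 (0.88), TRAM2 (0.87), HM13 (0.87), SLC35B1 (0.85), TPST2 (0.85) and TSPAN13 (0.85). As background, PLOD3 is a collagen-modifying enzyme, FICD attaches and removes AMP on HSPA5, HM13 cuts signal peptides left in the ER membrane, and TPST2 sulfates tyrosines in the Golgi. The genes most like PDIA3 over the 27 arrays, chosen after its values were seen, were AARS1 (r = 0.80), SHMT2 (0.79), DCTPP1 (0.75), REXO2 (0.75) and ENAH (0.74). Within groups their correlations with PDIA3 were lower, at 0.59, 0.35, 0.49, 0.60 and 0.49 in the same order. AARS1 charges tRNA with alanine and SHMT2 is a serine-converting enzyme of mitochondria. These values describe 27 arrays against 1 pool and carry no test.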
